A study of Mus musculus with 6 samples.

Results

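The mitochondrial respiratory chain passes electrons from NADH and succinate to oxygen through complexes I to IV, pumps protons on the way, and drives ATP synthase (complex V) with the gradient. Nearly all of its subunits are encoded in the nucleus, while a small set of core subunits of complexes I, III, IV and V comes from the mitochondrial genome. Megakaryocytes, the cells that shed platelets, pack mitochondria into the platelets they release. The genes described here were those whose symbol starts with Nduf (subunits and assembly factors of complex I, and a subunit now placed in complex IV), Sdha to Sdhd (complex II), Uqcr (complex III), Cox4 to Cox8 (complex IV) or Atp5 (complex V). They were taken from probe sets, groups of short probes to one transcript on an Affymetrix array, that name 1 gene. Of 18193 named genes, 90 met this rule, with 179 probe sets. The rule works on symbols and uses no measured value, but it was chosen with earlier results of these data known.

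Expression was measured in mouse megakaryocytes grown from progenitors of fetal liver at embryonic day 13.5 and collected on an albumin gradient. Total RNA of 3 samples labelled Gata-1 knock down and 3 labelled Gata-1 wild type, each with the letters A, B and C, was hybridised to 1 array per sample. GATA1 binds DNA through zinc fingers and drives the differentiation of megakaryocytes and erythroid cells. The sources used here do not give how the knockdown was made, the strain of the mice, or whether the samples of a group came from separate embryos or cultures. The spread behind every p-value is therefore that between these 6 samples, and part or all of it may be technical. Gata1 itself, read from 1 probe set, had deposited signals of 154, 143 and 195 in knockdown and 8724, 8247 and 8496 in wild type, a log2 change of -5.52 ± 0.12 (SE, limma adjusted p = 2.89e-09), which fits the labels of all 6 arrays.

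Changes are given as log2 fold changes of knockdown minus wild type, on quantile-normalized log2(signal + 32) with the standard error of limma's fit, and a gene is said to have risen or fallen only at an adjusted p under 0.05 over all probe sets tested. Signals of single arrays are as deposited, in arbitrary units of brightness, and can be compared between arrays but not between genes. Each gene is read from its brightest probe set. Quantile normalization sets the arrays to a common distribution. They differed in their overall distribution, with median signals of 111.3, 137.8 and 118.4 in knockdown A, B and C and 101.6 to 104.4 in wild type. Beside each group of genes, 2 other scalings are therefore given: the signals as deposited, and arrays centred on their medians. The highest bacterial control, which marks background, read 82.2, 132.0 and 79.8 in knockdown A, B and C and 60.7 to 65.8 in wild type. Centring thus lines the arrays up on probe sets not far above background. The median over the respiratory chain genes was 4233 to 4729 on the 6 arrays. The markers of other cells moved with the groups. The summed signal of 10 megakaryocyte markers was 103266 to 127639 in knockdown and 150542 to 160443 in wild type, where 8 fell and 0 rose. That of 9 macrophage markers was 7630 to 7647 against 20136 to 20775 (9 fell), and that of 8 neutrophil markers 2709 to 2809 against 10507 to 10896 (7 fell). For 7 erythroid markers it was 7811 to 7987 against 21776 to 22157 (4 fell, 1 rose), and for 9 mast cell markers 1285 to 1469 against 4398 to 4988 (7 fell, with 6 of the 9 within the background of the array in knockdown). The 7 hepatocyte markers summed to 551 to 805.0 against 1218 to 1391 (1 fell, 0 rose), with Apoa1 and Fgb within background on all 6 arrays. The 6 fibroblast and endothelial markers summed to 3192 to 4201 against 5115 to 5431 (1 fell, 1 rose). The 6 lymphoid markers overlapped, with 379.6 to 875 against 572 to 627 (0 called). The part of these cells in the results below was not tested, and in bulk RNA fewer cells of a type and less RNA per cell cannot be told apart.

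The sequence in front of the gene was read for the respiratory chain genes with an entry in RefSeq's table of promoters (GRCm38.p6), which holds 250 bases before to 50 after the start of each gene and matched 74 of the 90. The sequences of 3 are shown, taken from the 7 genes that were called in the same direction under all 3 scalings, Uqcrfs1 and Atp5g2 upward and Ndufs5 downward. These 3 were picked after their values and motifs were seen, to show a stretch with neither motif below, one with 1 of them and one with both. Each line gives the 150 bases in front of the start, 5′ to 3′ on the strand of the gene. Capitals mark a match to a GATA motif (GATAA or GATAG with A or T in front, on either strand) or to the site of NRF1 (GCGCA, any base, GCGC), a transcription factor known for binding in front of many nuclear genes of the respiratory chain.
Uqcrfs1, minus strand of chr13:30545317-30545466: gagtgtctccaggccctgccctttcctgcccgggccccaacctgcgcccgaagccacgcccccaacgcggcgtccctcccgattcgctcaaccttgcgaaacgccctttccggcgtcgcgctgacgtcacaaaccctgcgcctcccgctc
Atp5g2, minus strand of chr15:102671048-102671197: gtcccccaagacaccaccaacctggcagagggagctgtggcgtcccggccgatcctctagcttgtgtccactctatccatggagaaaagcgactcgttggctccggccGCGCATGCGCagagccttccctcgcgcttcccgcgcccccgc
Ndufs5, minus strand of chr4:123718187-123718336: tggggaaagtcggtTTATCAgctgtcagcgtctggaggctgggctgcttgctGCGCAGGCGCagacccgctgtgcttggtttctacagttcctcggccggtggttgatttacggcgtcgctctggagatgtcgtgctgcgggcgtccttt
The stretch of Ndufs5 holds a GATA motif, seen as TTATCA on this strand, and an NRF1 site (GCGCAGGCGC). That of Atp5g2 holds an NRF1 site (GCGCATGCGC) and no GATA motif, and that of Uqcrfs1 holds neither. These matches are a description of letters and not of binding.

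Over the whole chain, most subunit genes moved little, a few moved clearly, and the direction of the family as a whole depended on the scaling. Of the 90 genes, 86 were bright enough to be tested, and 27 of these (31.4%) rose, 4 (4.65%) fell and 55 did not pass. Over all 14230 genes tested, 18.3% rose and 17.1% fell. On the signals as deposited, 22 respiratory chain genes rose and 5 fell, against 21.1% and 16.2% of all genes, and with arrays centred on their medians 3 rose and 17 fell, against 8.35% and 20.8%. On the deposited signals, all knockdown arrays lay above all wild-type arrays for 32 of the 86 genes and below them for 18, where 29.1% and 20.4% of all genes did so. After quantile normalization it was 39 and 9, where 24.9% and 22.8% did. For 10 tested genes the deposited means ran in the other order from the fitted change, and 0 of these were called. They were Ndufa1, Ndufb2, Ndufb4, Ndufv2, Sdhc, Uqcrb, Cox5a, Cox7a2, Atp5h and Atp5l. The median log2 change of the 86 genes was 0.10 with quantile normalization (0.03 over all genes), 0.09 as deposited (0.12 over all genes) and -0.10 with centring (-0.08 over all genes). Centring moved the median of all genes by -0.11 relative to quantile normalization.

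**Figure D1:**
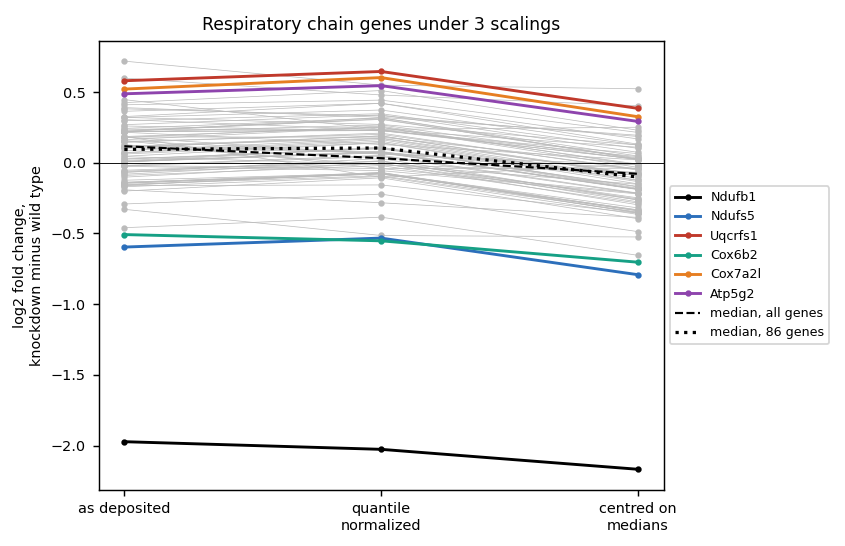
Log2 fold change (knockdown minus wild type) of each of the 86 tested respiratory chain genes under 3 scalings, 1 line per gene, with 6 genes in colour and the medians of the 86 genes (dotted) and of all genes tested (dashed). The median of the 86 genes lies at 0.09, 0.10 and -0.10, while Uqcrfs1, Cox7a2l and Atp5g2 stay above 0 and Ndufb1, Ndufs5 and Cox6b2 below it.

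Calls held under all 3 scalings for 3 rises (Uqcrfs1, Cox7a2l and Atp5g2) and 4 falls (Ndufb1, Ndufs5, Ndufb8 and Cox6b2). Of the 27 rises, 21 were also called on the deposited signals, and 7 lay below 0 with arrays centred on their medians. The spread of the changes was narrower than that of all genes, both with quantile normalization and as deposited. The interquartile range of the log2 changes was 0.287 for the 86 genes and 0.586 for all genes tested with quantile normalization. As deposited it was 0.29 against 0.589. Centring moves the deposited log2 changes of all genes by the same amount, so it leaves these ranges as they are and is no separate reading of the spread. A change of at least 0.5 in size was seen in 9 of the 86 genes (10.5%) and in 27.5% of all genes. For a comparison at like brightness, the 1374 genes with signals within the middle 50% of the respiratory chain genes were read the same way. Among them the interquartile range was 0.57, 26.8% changed by at least 0.5, 36.3% rose and 28.3% fell. The 42 respiratory chain genes inside that range had an interquartile range of 0.245, and 16 of them (38.1%) rose and 1 (2.38%) fell. As deposited, 29.2% of the genes of like brightness rose and 34.1% fell, against 10 (23.8%) and 2 (4.76%) of the 42. With centring, 11.4% of the former rose and 42.5% fell, against 2 (4.76%) and 9 (21.4%) of the 42. The share of rises among the respiratory chain genes thus lay near or below that of genes of like brightness under each of the 3 scalings, and the share of falls was lower. These shares are a description, with no test of the list.

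**Figure D2:**
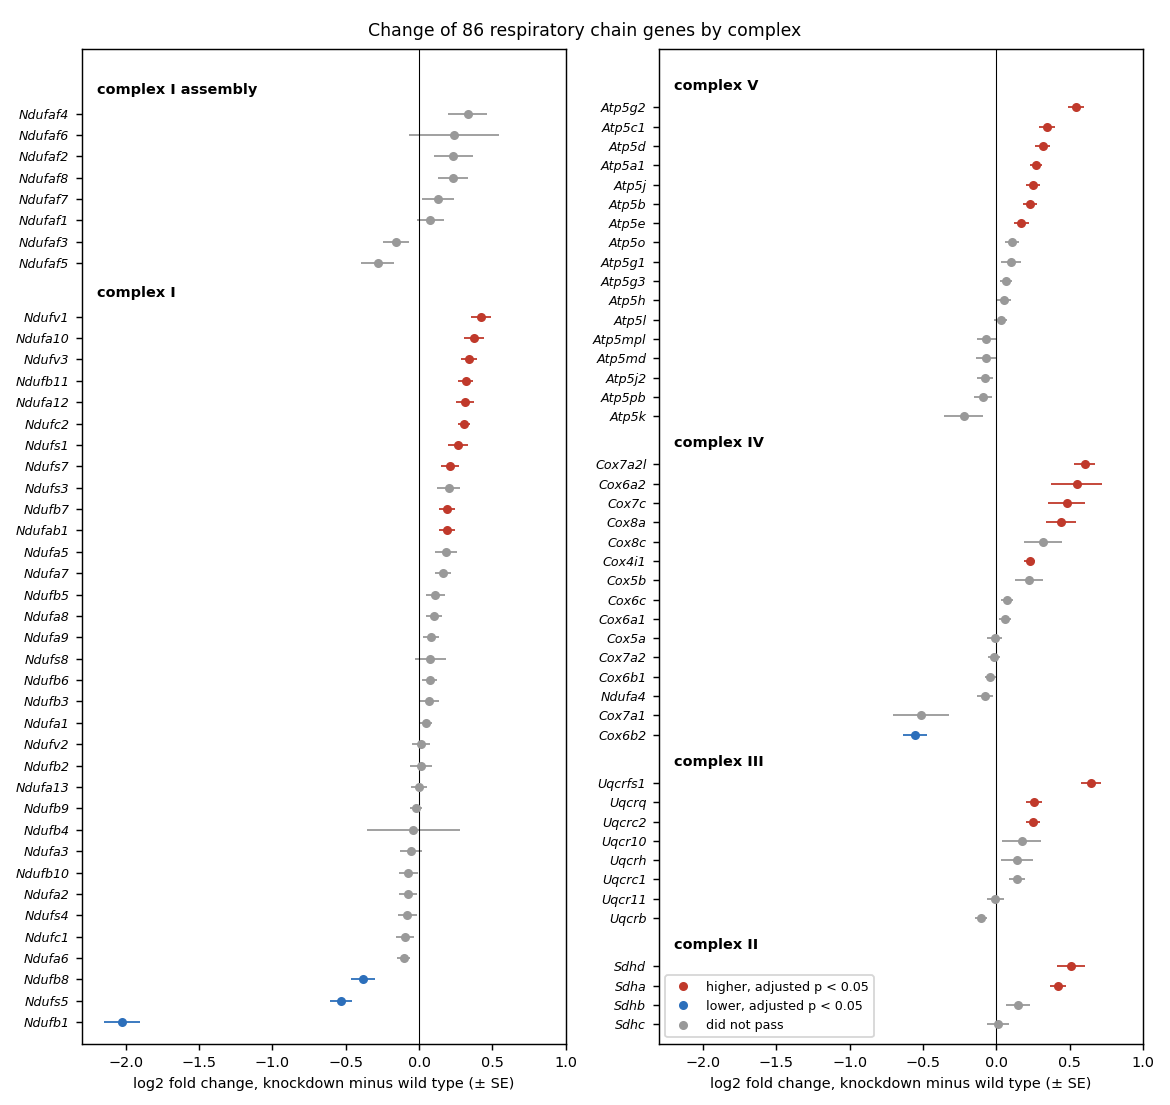
Log2 fold change (knockdown minus wild type, ± SE of limma's fit, 3 arrays per group) of the 86 tested genes, ordered within each complex, in red where the gene rose, in blue where it fell and in grey where it did not pass. Rises reach 0.65 (Uqcrfs1), 3 of the 4 falls are in complex I, and Ndufb1 at -2.03 stands apart from the other genes.

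Complex I, NADH dehydrogenase, takes electrons from NADH in an arm that reaches into the mitochondrial matrix and pumps protons through an arm in the inner membrane. Of its 34 subunit genes tested, 10 rose (29.4%) and 3 fell (8.82%), with a median log2 change of 0.07. The deposited signals gave 7 rises and 4 falls, and centring gave 0 and 10. Over all genes, 18.3% rose and 17.1% fell with quantile normalization. The shares were 21.1% and 16.2% as deposited, and 8.35% and 20.8% with centring. These shares of all genes belong beside the counts of this and the later complexes, together with those at like brightness. Among genes of like brightness to the family, 36.3% rose and 28.3% fell with quantile normalization. As deposited it was 29.2% and 34.1%, and with centring 11.4% and 42.5%. Brightness was matched to the whole family and not to each complex. The 3 falls that were called with quantile normalization were all accessory subunits of the membrane arm, which help to build and hold the complex and carry no redox centre.

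Ndufb1, one of the smallest membrane arm subunits, had by far the largest change of the 86 genes. Its single probe set read 393, 322 and 458 in knockdown A, B and C and 1609, 1600.0 and 1625 in wild type A, B and C. Every knockdown array lay below every wild-type array, with a log2 change of -2.03 ± 0.12 (4.07-fold lower, adjusted p = 1.30e-06). It was the 1 gene of the 86 to change by at least 2-fold. The change was -1.97 on the deposited signals and -2.17 with centring. In the RefSeq table, the start of Ndufb1 lies beside that of Cpsf2, a subunit of the mRNA cleavage and polyadenylation complex, on the opposite strand. Cpsf2, named after its values were seen, read 1272, 1179 and 1122 in knockdown and 1863, 1918 and 1877 in wild type, so its groups did not overlap either. It fell by 0.63 on the log2 scale (SE 0.07, adjusted p = 6.99e-05).

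Ndufs5, a subunit on the side of the membrane arm that faces the intermembrane space, read 2420 (knockdown A), 1946 and 2119 against 3421, 3136 and 3259. The groups did not overlap, and the log2 change was -0.53 ± 0.08 (adjusted p = 0.000453). A further probe set that names Ndufs5 together with a pseudogene was not counted. Ndufb8, an accessory subunit often used as a marker of assembled complex I, read 2899, 3345 and 3614 against 4634, 4507 and 4393. Its arrays did not overlap, with a log2 change of -0.38 ± 0.08 (adjusted p = 0.00518). The call for Ndufb8 rests on the brighter of 2 probe sets. The dimmer one, near background, gave 0.28 and did not pass, and with the mean of both the change was -0.05.

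The core subunits of the peripheral arm carry the flavin and the iron-sulfur clusters that take electrons from NADH. With quantile normalization, 3 of the 6 tested rose and 0 fell, as deposited 2 and 0, and with centring 0 and 1. Ndufv1, which binds NADH and the flavin, read 3199, 3164 and 2845 in knockdown and 2338, 2322 and 2466 in wild type. The groups did not overlap, its log2 change was 0.42 ± 0.07 (adjusted p = 0.000838), and all 3 of its probe sets rose. Ndufs1, the largest core subunit, read 2298, 2543 and 2424 against 2175, 2025 and 2036, with 0.27 ± 0.07 (adjusted p = 0.0141). Its arrays did not overlap, but the call was lost without wild-type array B or C. Ndufs7, which holds the last iron-sulfur cluster before ubiquinone, read 3108, 3327 and 3301 against 3036, 2889.5 and 2877, a log2 change of 0.21 ± 0.06 (adjusted p = 0.0226), and reads -0.05 with centring. That call was lost as deposited and without knockdown B or C or wild type B or C.

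Ndufv2, the partner of Ndufv1, read 5256, 6175 and 5879.6 against 6079, 6049 and 6146. Its groups overlapped and its log2 change was 0.01 ± 0.06, which did not pass, while with centring it was called lower, at -0.28. Ndufs3, a subunit of the quinone-binding region, read 2222, 2544 and 2679.6 against 2195, 2229.5 and 2252, a log2 change of 0.20 ± 0.08 that did not pass (adjusted p = 0.0864). Ndufs8, which carries a pair of iron-sulfur clusters, gave 0.08 ± 0.11 and did not pass (adjusted p = 0.658). Its 6 probe sets disagreed, since 1 of them fell by 0.72 on the log2 scale (4157, 2626 and 2749.9 in knockdown, 4383, 6820.1 and 5362 in wild type) and the other five did not pass. That probe set had a wide spread in both groups, and its groups did not overlap as deposited but did after quantile normalization.

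The remaining complex I genes are accessory subunits. Of the 19 tested in the membrane arm, 4 rose and 3 fell, with a median log2 change of 0.01, and with centring 0 rose and 6 fell. Ndufa10 (0.37 ± 0.07, adjusted p = 0.00242) and Ndufb11 (0.32 ± 0.05, adjusted p = 0.000859) had the largest rises there, and Ndufc2 gave 0.31 ± 0.04 and Ndufb7 0.19 ± 0.06. The deposited signals of Ndufb11 were 5493, 5821 and 6084 against 5056, 4879.5 and 4948, so the groups did not overlap. Its probe sets disagreed. A further one rose by 0.25, while another of like brightness gave -0.05 and did not pass (adjusted p = 0.569). That one read 5231, 5269 and 4669 in knockdown against 5671, 5424 and 5609 in wild type, so as deposited its knockdown arrays lay lower. Ndufa10 lost its call when its 2 probe sets were averaged (0.05). Of the 8 tested in the peripheral arm, 2 rose and 0 fell, against 0 and 3 with centring. Ndufv3, which sits on the NADH-binding module, read 7876, 9259 and 8408 against 6957, 7051 and 7125 and rose by 0.34 ± 0.05 (adjusted p = 0.000723). Ndufa12 rose by 0.31 ± 0.06, in all 4 of its probe sets. Ndufab1, the mitochondrial acyl carrier protein, is found in both arms and rose by 0.19 ± 0.05 (adjusted p = 0.0214), a call that was lost as deposited and without any single wild-type array, and with its probe sets averaged. The call for Ndufb7 was lost as deposited and without knockdown B or C or wild type B or C. The accessory genes that did not pass ran from -0.11 (Ndufa6) to 0.18 (Ndufa5). Ndufb4 was read from a dim probe set, with the largest SE of the 86 genes (0.32), and probe sets that name it together with related genes were not counted.

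Complex I is built with the help of assembly factors that do not stay in it. None of the 8 Ndufaf genes tested passed with quantile normalization or as deposited, while 1 fell with centring (Ndufaf3, -0.36), and their log2 changes ran from -0.28 (Ndufaf5) to 0.33 (Ndufaf4), with a median of 0.18. Ndufaf4 read 959.9, 655 and 927 in knockdown and 612, 653 and 639 in wild type, with 1 knockdown array close to the wild-type values (adjusted p = 0.0908), while its second, dimmer probe set rose and the mean of both was called higher (0.44). The widest error among the factors was that of Ndufaf6 (0.24 ± 0.31), whose signal was at background on knockdown B.

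**Figure D3:**
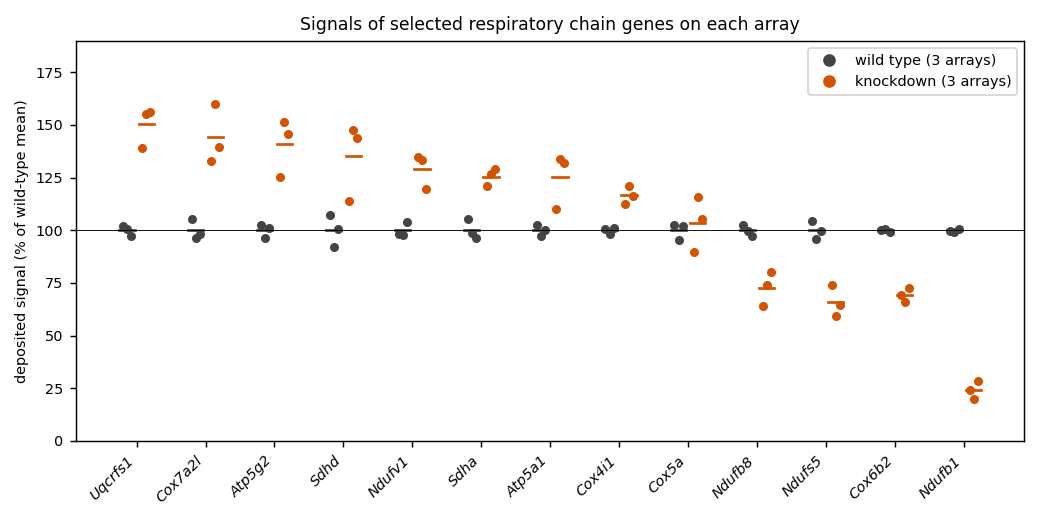
Deposited signal of 13 respiratory chain genes on each of the 3 wild-type (grey) and 3 knockdown (orange) arrays, as a percentage of the wild-type mean, with a bar at each group mean. The groups do not overlap except for Cox5a, and the knockdown arrays spread more than the wild-type arrays except for Sdha.

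Complex II, succinate dehydrogenase, is the enzyme of the citric acid cycle that sits in the membrane and has no subunit from the mitochondrial genome. Of its 4 genes, 2 rose and 0 fell with quantile normalization and as deposited, and 0 changed with centring. Sdha, the flavoprotein that oxidises succinate, read 5698, 5977 and 6087 in knockdown against 4962, 4649.9 and 4536 in wild type. The groups were apart, with 0.42 ± 0.05 (adjusted p = 0.000186). Sdhd, one of the pair of membrane anchors, read 4855, 6292 and 6134 against 4579, 3924 and 4283, and rose by 0.51 ± 0.10 (adjusted p = 0.0023). Knockdown A lay nearest to the wild-type arrays. For both genes the call rests on the brightest probe set and was lost when probe sets were averaged (0.17 for Sdha and 0.20 for Sdhd). Sdhb, the iron-sulfur subunit, read 4046, 5043 and 4788 against 4609.6, 4225 and 4331, and its groups overlapped (0.15 ± 0.08, adjusted p = 0.207). Sdhc, the other anchor, gave 0.01 ± 0.08 (adjusted p = 0.947).

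Complex III, the cytochrome bc1 complex, passes electrons from ubiquinol to cytochrome c. Of its 8 genes tested, 3 rose and 0 fell with quantile normalization, and 1 rose and 0 fell both as deposited and with centring. The gene that rose under each scaling was Uqcrfs1, the Rieske iron-sulfur protein and the one catalytic subunit of the complex in this set. It read 3895, 4355 and 4383 in knockdown and 2861, 2824 and 2723 in wild type. All knockdown arrays lay far above all wild-type arrays, and the log2 change of 0.65 ± 0.07 (1.56-fold, adjusted p = 4.3e-05) was the largest rise of the 86 genes. It was 0.58 as deposited and 0.38 with centring. Only 1 probe set names the gene.

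The core proteins of complex III are related to a protease that trims imported proteins. Uqcrc2 read 6254, 6670.0 and 6546 against 5983, 5743 and 5654, and rose by 0.25 ± 0.05 (adjusted p = 0.00275). Uqcrc1 read 4897, 4966 and 4879 against 4757, 4468 and 5071, with overlapping groups (0.14 ± 0.05, adjusted p = 0.0791). Among the 5 small subunits 1 rose, Uqcrq (0.26 ± 0.06, adjusted p = 0.00542), and the rest ran from -0.10 (Uqcrb) to 0.17 (Uqcr10). As deposited Uqcrb read 0.19, which did not pass either (adjusted p = 0.157). The calls for Uqcrc2 and Uqcrq were both lost as deposited and with centring.

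Complex IV, cytochrome c oxidase, hands the electrons to oxygen. Its core is encoded by the mitochondrial genome, and the nuclear subunits around it include pairs of ubiquitous and tissue-specific forms. Of its 15 genes tested, 5 rose and 1 fell, against 6 and 1 as deposited and 1 and 2 with centring. Cox7a2l, which helps to join complexes III and IV into a supercomplex, read 6026, 7235 and 6324 in knockdown against 4774, 4364 and 4450.2 in wild type. The groups were well apart, with a log2 change of 0.60 ± 0.07 (1.52-fold, adjusted p = 9.82e-05), and its other probe sets rose by 0.77 and 0.80. It was 0.52 as deposited and 0.33 with centring.

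Of the 10 ubiquitous subunits tested, 3 rose and 0 fell, against 3 and 0 as deposited and 0 and 1 with centring. Cox4i1, a regulatory subunit that binds ATP, read 11362, 12208 and 11732 against 10144, 9897 and 10219, and rose by 0.23 ± 0.04 (adjusted p = 0.00133). Cox5a read 11538, 14945 and 13582 against 13234, 12293 and 13149.7, with overlapping groups and a log2 change of -0.01 ± 0.05 (adjusted p = 0.891). Cox5b, which binds zinc, read 9751, 14496 and 13519 against 10947, 9528 and 10652. Knockdown A lay within the wild-type range, and the log2 change of 0.23 ± 0.10 did not pass (adjusted p = 0.107), although 2 of its dimmer probe sets rose. Cox8a rose by 0.44 ± 0.10 (adjusted p = 0.00747) in both tested probe sets, but knockdown A (7777) and wild type A (7793) overlapped as deposited. Cox7c rose by 0.48 ± 0.13 (adjusted p = 0.0163) on a dim probe set of 398, 377 and 362 against 264, 241 and 215. It lost its call without wild-type array B or C and with its probe sets averaged (0.35, adjusted p = 0.127).

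Paralogous pairs were read side by side, each gene against itself. Cox6b2, the testis form of the subunit that joins a pair of complex IV units into a dimer, read 690.2, 658 and 722 in knockdown and 997, 1001 and 984 in wild type. Its arrays did not overlap and it fell, with -0.55 ± 0.08 (1.47-fold, adjusted p = 0.000499), -0.51 as deposited and -0.70 with centring. Its ubiquitous partner Cox6b1 read 11237, 12051 and 12148 against 12063, 11668 and 12157, with overlapping groups (-0.04 ± 0.04, adjusted p = 0.483). Cox6a2, the heart and muscle form, rose by 0.55 ± 0.18 (adjusted p = 0.0382), reading 196, 233 and 224 against 98.4, 146 and 118. These signals lie close above the bacterial controls that mark background (60.7 to 132 over the 6 arrays), and the call was lost without knockdown B or C and without wild type A or C. Cox6a1, the ubiquitous partner, gave 0.06 ± 0.04 (adjusted p = 0.299).

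Cox7a1, the heart and muscle form of subunit VIIa, read 97.7, 114 and 131 against 144, 141 and 171. The groups did not overlap, but the signals were near background and -0.51 ± 0.19 did not pass (adjusted p = 0.072). Cox7a2, the ubiquitous form, gave -0.02 ± 0.04 (adjusted p = 0.824). As deposited, its knockdown arrays (14558, 16201 and 15532) all lay above wild type (14074, 13711 and 14535), with 0.13 that did not pass (adjusted p = 0.139). Cox8c gave 0.32 ± 0.13 (adjusted p = 0.0931), and Ndufa4, a subunit of complex IV despite its name, -0.08 ± 0.05 (adjusted p = 0.33). The hypoxia and tissue forms Cox4i2, Cox7b2, Cox8b and Ndufa4l2 were too dim to be tested. Cox4i2, Cox7b2 and Cox8b lay at or below the highest bacterial control on every array, and Ndufa4l2 lay above it on knockdown A alone.

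**Figure D4:**
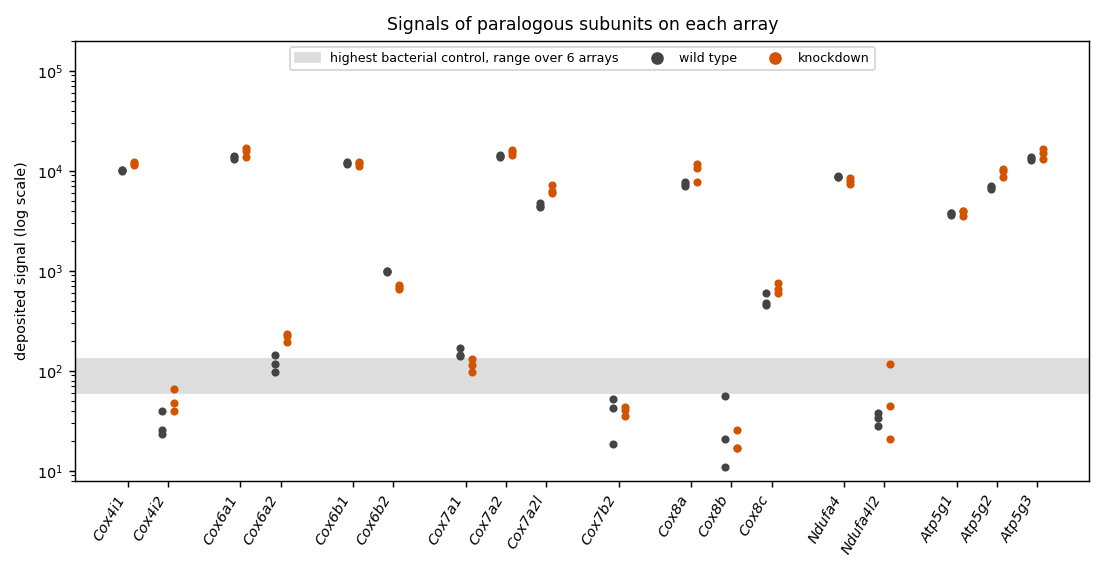
Deposited signal (log axis) of each gene of the paralogue families on the 3 wild-type (grey) and 3 knockdown (orange) arrays, with the range of the highest bacterial control over the 6 arrays (60.7 to 132) as a grey band. Cox4i2, Cox7b2, Cox8b and Ndufa4l2 lie in or below the band, Cox6a2 and Cox7a1 near it, and Cox6b2, Cox7a2l and Atp5g2 are the genes whose calls held under all 3 scalings.

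Complex V, ATP synthase, turns a ring of c subunits in the membrane and with it a shaft inside the catalytic F1 head. Of its 17 genes tested, 7 rose and 0 fell, against 6 and 0 as deposited and 1 and 4 with centring. In the F1 head 5 of 5 genes rose with quantile normalization, against 4 as deposited and 0 with centring, and 0 fell under any of the 3. Atp5a1, the alpha subunit, read 12799, 15551 and 15309.8 against 11905, 11303 and 11596. Groups were apart, with 0.27 ± 0.04 (adjusted p = 0.000477), and its 3 probe sets all rose. Atp5b, the catalytic beta subunit, read 12530.0, 13144 and 13180.3 against 11361, 10734 and 10829.6 and rose by 0.23 ± 0.05 (adjusted p = 0.00397).

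Atp5c1, the gamma subunit that forms the shaft, read 8612, 10139 and 9925 against 7717, 7999 and 7548 and rose by 0.35 ± 0.05 (adjusted p = 0.000662). With the mean of its 2 probe sets, of which the dimmer lies near background, it read -0.15. The delta subunit Atp5d (0.32 ± 0.05, adjusted p = 0.00105) rose in both probe sets. The epsilon subunit Atp5e had the smallest called rise of the 86 genes (0.17 ± 0.05, adjusted p = 0.0206), lost as deposited and without knockdown C or any single wild-type array.

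The c ring is made of one protein encoded by 3 genes, which differ in the part that is cut off on import. One of them rose under all 3 scalings. Atp5g2 read 8638, 10422 and 10046 in knockdown and 7066, 6635 and 6969 in wild type, so the groups did not overlap, and it rose by 0.55 ± 0.05 (1.46-fold, adjusted p = 3.47e-05). It was 0.49 as deposited and 0.29 with centring. Of its 2 tested probe sets only the brighter rose, and with their mean the change was 0.46, close to the threshold (adjusted p = 0.0449). Atp5g1 read 3506, 4009 and 3934 against 3822, 3578 and 3814 (0.10 ± 0.07, adjusted p = 0.325). Atp5g3 read 13026, 16668 and 14919 against 13483, 12749 and 13636 (0.06 ± 0.04, adjusted p = 0.279). The groups of both overlapped.

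In the peripheral stalk, which holds the head still, Atp5j rose by 0.25 ± 0.05 (adjusted p = 0.00203) and the other three did not pass. None of the 5 small membrane subunits rose or fell with quantile normalization or as deposited, with a median log2 change of -0.07, while 3 of them fell with centring. Atp5k had the lowest value (-0.22 ± 0.13), with knockdown B at 5739 and the other 5 arrays at 8694 to 9658. Its dimmer probe sets both fell.

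Probe sets of a gene did not always give the same call. Over the 165 member probe sets tested, 48 rose and 10 fell, where 16.1% and 14.3% of all 31526 probe sets did. As deposited 36 rose and 11 fell, and with centring 8 and 30. Shares over all probe sets were not counted for these scalings. Over all genes tested, 21.1% rose and 16.2% fell as deposited, and 8.35% and 20.8% with centring. For 49 genes more than 1 probe set was tested, and in 0 of them were probe sets called in opposite directions. Among the 27 rises, 19 had several tested probe sets and 7 of these rose in each one (Ndufa12, Ndufs7, Ndufv1, Cox7a2l, Cox8a, Atp5a1 and Atp5d). A further 10 genes that did not pass had a dimmer probe set that did, of which 5 rose (Ndufa7, Ndufaf4, Uqcrh, Cox5b and Cox7a2) and 5 fell (Ndufc1, Ndufs8, Uqcrb, Atp5k and Atp5pb).

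Knockdown A had the lowest deposited signal of the 3 knockdown arrays for 54 of the 86 genes (62.8%), where it was lowest for 42.7% of all genes tested. Knockdown B was lowest for 24 of the 86 and knockdown C for 8. The median SD of the 86 genes was 7.62% of the mean in knockdown and 3.28% in wild type, against 13.5% and 8.51% over all genes. Without knockdown A, 38 of the genes rose and 7 fell, and 14 that did not pass before were called. Calls also grew over all genes without that array, to 20.6% higher and 19.2% lower. Values relative to the median of the 86 genes, which do not move with a shift common to the family, kept Uqcrfs1 at 0.54 (0.49 to 0.60 over the alternatives), Cox7a2l at 0.50 (0.43 to 0.65) and Atp5g2 at 0.44 (0.39 to 0.48). The same reading gave Ndufs5 -0.64 (-0.73 to -0.56), Cox6b2 -0.66 (-0.70 to -0.60) and Ndufb1 -2.13 (-2.27 to -1.96).

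The genes that supply and serve the chain were read from lists of their own. Beside the counts of each list stand the shares over all genes tested. With quantile normalization 18.3% rose and 17.1% fell, as deposited 21.1% and 16.2%, and with centring 8.35% and 20.8%. Shares at like brightness were not counted for these lists, and the lists were not tested as sets. Of 43 electron carriers and assembly factors tested, 12 rose and 6 fell with quantile normalization, against 15 and 7 as deposited and 2 and 10 with centring. Atpaf2, which helps to assemble the F1 head, rose by 0.57 ± 0.13 (adjusted p = 0.00799). Ttc19, an assembly factor of complex III, rose by 0.61 ± 0.15 (adjusted p = 0.0123) in its brightest probe set but read -0.03 with the mean of its probe sets, and its call was lost without wild type C. Pet100, a chaperone of complex IV assembly, read 2559.9, 3267 and 3252 against 4695, 4688 and 4477 and fell by 0.54 (SE 0.09, adjusted p = 0.00159). Coa7, another complex IV factor, gave -0.76 ± 0.25 (adjusted p = 0.0418), with overlapping groups as deposited and the call lost there and without any single array except knockdown A. In coenzyme Q synthesis, the pathway of the lipid carrier, 4 of 12 rose and 1 fell (6 and 1 as deposited, 0 and 1 with centring). Coq2 rose by 0.45 ± 0.08 and Coq9 by 0.34 ± 0.07. Averaging its probe sets gave 0.18 for Coq9 (adjusted p = 0.246). Coq10b gave -0.58 ± 0.08 (adjusted p = 0.000255) in its brightest probe set and -0.99 with its probe sets averaged.

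The citric acid cycle and pyruvate dehydrogenase list, which feeds NADH and succinate to the chain, had 10 rises and 4 falls of 24 (10 and 4 as deposited, 3 and 6 with centring). Pdk1, a kinase that shuts off pyruvate dehydrogenase, read 1302, 1376 and 1489.8 against 726, 744 and 654 and rose by 0.92 ± 0.09 (adjusted p = 2.74e-05). Its relative Pdk2 moved the other way, reading 191, 168 and 210.0 against 319, 412 and 285, with -0.88 ± 0.17 (adjusted p = 0.00322). Mpc1, a subunit of the carrier that brings pyruvate into mitochondria, read 1863, 1494 and 1659 against 2848, 2857 and 2928, with -0.73 ± 0.08 (adjusted p = 5.07e-05). These 3 genes were called in the same direction under each of the 3 scalings. Pcx, pyruvate carboxylase, was within background on all wild-type arrays, so its rise is given as at least 1.46-fold, and its call was lost with centring (adjusted p = 0.054) and without knockdown A or C or any single wild-type array.

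**Figure D5:**
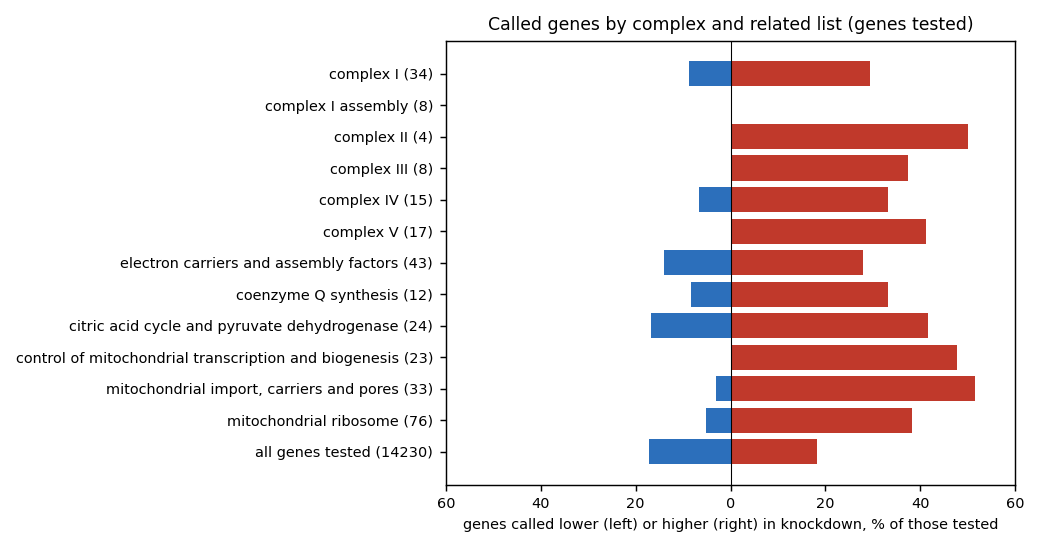
Share of tested genes called higher (red, right) or lower (blue, left) in knockdown, in percent with quantile normalization, by complex, by related list and over all genes tested, with the number tested in parentheses. Complex I assembly factors have 0 calls, mitochondrial import has 51.5% higher and 3.03% lower, and all genes have 18.3% and 17.1%.

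In the list for control of mitochondrial transcription and biogenesis, 11 of 23 rose and 0 fell (12 and 0 as deposited, 5 and 0 with centring). Twnk, the helicase of the mitochondrial genome, read 749.8, 669.5 and 731 against 240.4, 399 and 335 and rose by 1.01 ± 0.15 (adjusted p = 0.000611). Myc, a transcription factor that acts on many mitochondrial genes, read 1504, 1341 and 1410.1 against 845, 753 and 807 and rose by 0.78 ± 0.08 (adjusted p = 4.45e-05). Both were called under all 3 scalings. Import proteins, carriers and pores had 17 rises (51.5%) and 1 fall (3.03%) of 33 (16 and 1 as deposited, 5 and 4 with centring). Chchd4, which folds small proteins of the intermembrane space by oxidation, read 2308, 3106 and 2942 against 1286, 1256 and 1406 and rose by 1.09 ± 0.11 (adjusted p = 4.52e-05). Timm8a1, a small chaperone of the same space, rose by 0.96 ± 0.08 (adjusted p = 1.19e-05), and both calls held under each scaling. Timm17b, part of the inner membrane channel, gave -0.40 ± 0.07 (adjusted p = 0.00141), lost with the mean of its probe sets (-0.08).

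Mitochondrial ribosomal proteins, which make the subunits encoded in mitochondria, had 29 rises and 4 falls of 76 (33 and 5 as deposited, 5 and 7 with centring). Mrps35 (0.81 ± 0.11) and Mrpl23 (0.73 ± 0.09) had the largest rises, and Mrps36 (-0.55 ± 0.06) and Mrpl33 (-0.47 ± 0.14) the largest falls. Mrps36 has also been described as a part of the 2-oxoglutarate dehydrogenase complex. The call for Mrpl33 was lost when any one array other than knockdown A was left out, and with the mean of its probe sets it read -0.09 (adjusted p = 0.633). No probe set here names a gene of the mitochondrial genome, so the core subunits encoded there were not analysed here.

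Motifs were counted in the windows of the RefSeq table, on both strands. A GATA motif was found in 20 of the 74 matched respiratory chain genes (27.0%), near the 30.2% of all 27025 windows and the 26.7% of 17491 protein-coding genes. Of the 20, 4 rose and 1 fell, where 21 rose and 4 fell among the 72 tested genes with a window. The NRF1 site was in 16 windows (21.6%, against 4.78% of all and 6.6% of protein-coding genes), and 3 of these genes rose (Sdhd, Sdha and Atp5g2) and 1 fell (Ndufs5). An ETS motif (CCGGAAG) was in 18 (24.3%, against 9.12% and 11.9%), of which 4 rose and 0 fell, and a YY1 motif (AAGATGG) in 10 (13.5%, against 6.48% and 6.37%), of which 2 rose and 1 fell. The window overlapped that of another gene on the opposite strand for 25 of the 74 (33.8%, against 11.9% of all genes and 12.5% of protein-coding genes). Of these 25 genes, 4 rose and 1 fell. Among these pairs, Sdhd lies beside Timm8b and Atp5j beside Gabpa, a subunit of an ETS factor. Sdhd rose while Timm8b gave 0.03 ± 0.18 (adjusted p = 0.929), and Atp5j and Gabpa both rose (0.35 ± 0.11 for Gabpa, adjusted p = 0.0426). Timm8b and Gabpa were named after their values were seen.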

How the data were processed

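RNA of 6 samples was read on 1 Affymetrix array each. The deposited table of the authors holds intensity on a linear scale for 45101 probe sets, and the mean of each column after trimming 2% at each end is 500, as the values show. The array software is not given in the sources used here. Groups and letters come from the sample titles. A platform annotation gave 1 symbol to 34945 probe sets and several to 932, left 9160 without one, and marks 64 as controls. Symbols were updated through RefSeq's table (GRCm38.p6). The 10 probe sets that name several genes with a respiratory chain symbol among them were left out.

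Signals were tested as log2(signal + 32), which understates changes of dim genes, after quantile normalization, with limma 3.58.1 (lmFit, eBayes with trend) in R 4.3.3, group as the only term, two-sided, with Benjamini-Hochberg adjustment over 31526 probe sets, at 0.05. Controls and probe sets under the 30th percentile of mean signal were left out. A gene is read from its probe set with the highest mean. Within background means at or below the highest of 27 bacterial control probe sets on each array. A fold for such a gene is a bound against that control. The test was checked on simulated data. With 3 arrays per group, their number limits the precision.

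The members and lists were chosen with earlier results of these data known. Named are Gata1, the core subunits, up to 4 rises and 4 falls of each complex, the paralogue families, genes whose probe sets were called both ways, and up to 2 rises and 2 falls of each related list. Other genes with values were named after their values were seen. Alternatives were offsets of 1 and 100, the signals as deposited, median centring, no filter and a 50th percentile filter, the letter as a block, symbols as annotated, averaging the probe sets of a gene, and leaving out each array. Reading changes relative to the family's median was chosen after seeing the data.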

Additional observations from a re-analysis of the deposited data

How the results depend on the processing

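The family's direction depended on the scaling. With arrays centred on their medians, 3 respiratory chain genes rose and 17 fell (27 and 4 in the report), and 8 probe sets rose and 30 fell (48 and 10). With the probe sets of each gene averaged, 9 genes fell. Leaving out 1 array in turn gave 20 to 38 genes that rose and 4 to 7 that fell, and 34 to 68 probe sets that rose and 7 to 21 that fell. The highest of each came without knockdown A. The other alternatives kept these 4 counts within 1.5 times.

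With centring, 32 of the 86 genes turned from above 0 to below it, of which 7 had been called as rises: Atp5e (-0.11), Atp5j (-0.0098), Ndufab1 (-0.081), Ndufb7 (-0.0912), Ndufs7 (-0.0514), Uqcrc2 (-0.0324) and Uqcrq (-0.017). Ndufv2, which had not passed, was called lower (-0.28). Among named genes that had been called, averaged probe sets turned the sign of Atp5c1 (-0.15) and Ttc19 (-0.0295). The cause was not tested. Over the 15 alternatives, 3 of 27 rises (Atp5g2, Cox7a2l and Uqcrfs1) and 3 of 4 falls (Cox6b2, Ndufb1 and Ndufs5) kept their call throughout. So did 24 of 55 genes that did not pass. One of the alternatives, symbols as annotated, gave the same values as the report for the 86 genes. It could not change a call and is no separate test of stability. Ndufb4, among the 24, was read in 14 alternatives, since the stricter filter on dim probe sets left it out.

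Same-letter arrays did not deviate together (correlations of -0.0423, -0.0174 and -0.00958 for A, B and C), so the letters are not taken as pairs. With the letter as a replicate block, 22 genes rose and 4 fell, and 38 probe sets rose and 9 fell. Dim genes such as Cox6a2 and Cox7a1 lie near background, which limits what their values show.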
